A study of Mus musculus with 19 samples.

Results

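The 38 genes described here encode the chaperones, disulfide isomerases, translocation channel, degradation machinery and stress sensors of the endoplasmic reticulum (ER), measured by RNA sequencing of mouse kidney. They were chosen by symbol, with the condition that a gene reach at least 1 FPKM in at least 4 libraries. FPKM counts fragments per length of transcript and per sequenced total, so levels of different genes can be set side by side per unit of length. All 38 were found and all 38 met the condition, as did 13594 of the 19287 entries of the expression table in all. The 19 libraries came from male C57BL/6 mice, an inbred strain, and form 4 groups. The IRLacz group (4 libraries) had received Lactobacillus casei Zhang by oral gavage for 4 weeks before ischemia-reperfusion of the kidney, an interruption of blood flow followed by its return. The IRLac group (5 libraries) had received another Lactobacillus for 4 weeks before the same injury, taken here as Lactobacillus acidophilus by elimination, because the labels abbreviate that strain slightly differently. The IR group (5 libraries) had the injury and the sham group (5 libraries) the sham operation, and no gavage is given for either. Injured kidneys were taken on day 5. The labels used here give neither the duration of ischemia, nor whether 1 kidney or both were clamped, nor the day of the sham kidneys. They also do not state that a mouse gave only 1 library, so p-values measure the spread between these libraries.

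Proteins bound for secretion, the cell surface or lysosomes enter the ER through the Sec61 channel, where chaperones such as BiP (encoded by Hspa5) and the lectins calnexin and calreticulin hold them until they are folded and disulfide isomerases set their bonds. Chains that fail to fold are drawn back into the cytosol and degraded, a route called ER-associated degradation. When unfolded chains build up, the sensors IRE1, PERK and ATF6 start the unfolded protein response: spliced XBP1 and cleaved ATF6 raise chaperone and degradation genes, while PERK slows translation and, through ATF4 and CHOP, raises genes of amino acid supply and of cell death. In the kidney the response is known from tubule cells, which carry a large load of membrane transporters, and from fibroblasts and plasma cells, which secrete heavily.

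In sham kidneys the 38 genes spanned a wide range of levels. Calr (calreticulin) averaged 460.0 ± 22.3 FPKM, P4hb (protein disulfide isomerase) 349.2 ± 13.7 FPKM and Hspa5 235.6 ± 31.5 FPKM (SD, n = 5). At the other end were Derl3 at 0.918 ± 0.149 FPKM, Trib3 at 0.702 ± 0.210 FPKM and Chac1 at 0.586 ± 0.164 FPKM. Markers of kidney were present: the summed FPKM of 7 proximal tubule markers ran from 3634.04 to 4146.85 in sham. FPKM totals were 545590 to 584798 per library, and the number of reads is not stated, so the counting error behind a value is unknown. Among the injured libraries, IRLacz replicate 1 and IRLac replicate 3 had the lowest sums of 5 injured-tubule markers in their groups, and IR replicates 3 and 5 were the highest and the lowest IR libraries for many of the 38 genes, so the results below are also given without them where that matters. In whole kidney, fewer cells of a type and less RNA per cell cannot be told apart.

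Because several of these genes are textbook targets of the unfolded protein response, their promoters are shown for the letters that its factors are known to recognise. RefSeq promoter windows (build GRCm38.p6, from 250 bases before to 50 bases after the annotated start) were matched for 32 of the 38 genes. Hyou1, Hspa13, Manf, Derl1, Sec61a1 and Ssr2 had no window. Both strands were searched. The ER stress response element (ERSE, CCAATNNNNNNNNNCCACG), known as a site for the factor NF-Y beside ATF6 or XBP1, was in the windows of 9 genes, Calr, Canx, Creld2, Derl3, Dnajc3, Hsp90b1, Hspa5, Pdia6 and Syvn1, against 0.12% of all 32851 windows in the table. Hsp90b1 held 2 copies. The shorter ERSE-II (ATTGG, any base, then CCACG) was in the windows of Dnajb11 and Herpud1, against 0.04% of all windows. The XBP1-type core TGACGTG was in Hspa5 and Vcp, against 2.01% of all windows, and the ATF4-type element TGATGNAA in Chac1, Herpud1 and Trib3, against 3.97%. A match describes the letters and shows neither binding nor use.

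The Hspa5 promoter is printed up to the base before the start (chr2:34771840-34772089, plus strand), and the stretches around the other ERSE copies follow, each 5′ to 3′ on the strand of its gene, with the ERSE in capitals. Calr is at chr8:84847060-84847108 (minus strand), Canx at chr11:50325785-50325833 (minus), Creld2 at chr15:88819505-88819553 (plus), Derl3 at chr10:75893227-75893275 (plus), Dnajc3 at chr14:118937812-118937860 (plus), Hsp90b1 at chr10:86705518-86705671 (minus), Pdia6 at chr12:17266476-17266524 (plus) and Syvn1 at chr19:6046517-6046565 (plus). In Calr, Creld2, Derl3 and the copy of Hsp90b1 nearer the start, the capitals read CGTGG first because the match is on the opposite strand. In the Chac1 line (chr2:119351034-119351071, plus strand) the capitals mark the ATF4-type element, also on the opposite strand.
Hspa5: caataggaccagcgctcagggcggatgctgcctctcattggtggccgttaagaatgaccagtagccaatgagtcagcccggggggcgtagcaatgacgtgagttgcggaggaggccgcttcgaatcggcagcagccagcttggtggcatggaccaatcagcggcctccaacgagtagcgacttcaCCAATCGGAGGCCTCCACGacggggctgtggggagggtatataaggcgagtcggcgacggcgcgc
Calr: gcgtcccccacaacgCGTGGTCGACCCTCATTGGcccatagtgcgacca
Canx: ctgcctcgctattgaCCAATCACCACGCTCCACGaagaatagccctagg
Creld2: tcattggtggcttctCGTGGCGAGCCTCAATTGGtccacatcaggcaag
Derl3: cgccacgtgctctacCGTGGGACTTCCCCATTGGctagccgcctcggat
Dnajc3: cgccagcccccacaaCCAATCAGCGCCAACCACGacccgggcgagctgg
Hsp90b1: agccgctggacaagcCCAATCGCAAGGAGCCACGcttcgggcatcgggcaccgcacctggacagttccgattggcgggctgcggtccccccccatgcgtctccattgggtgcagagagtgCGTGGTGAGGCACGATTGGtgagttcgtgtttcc
Pdia6: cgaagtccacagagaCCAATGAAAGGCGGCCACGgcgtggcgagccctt
Syvn1: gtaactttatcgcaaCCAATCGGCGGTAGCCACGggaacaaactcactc
Chac1: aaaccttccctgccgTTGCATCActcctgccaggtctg

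**Figure D1:**
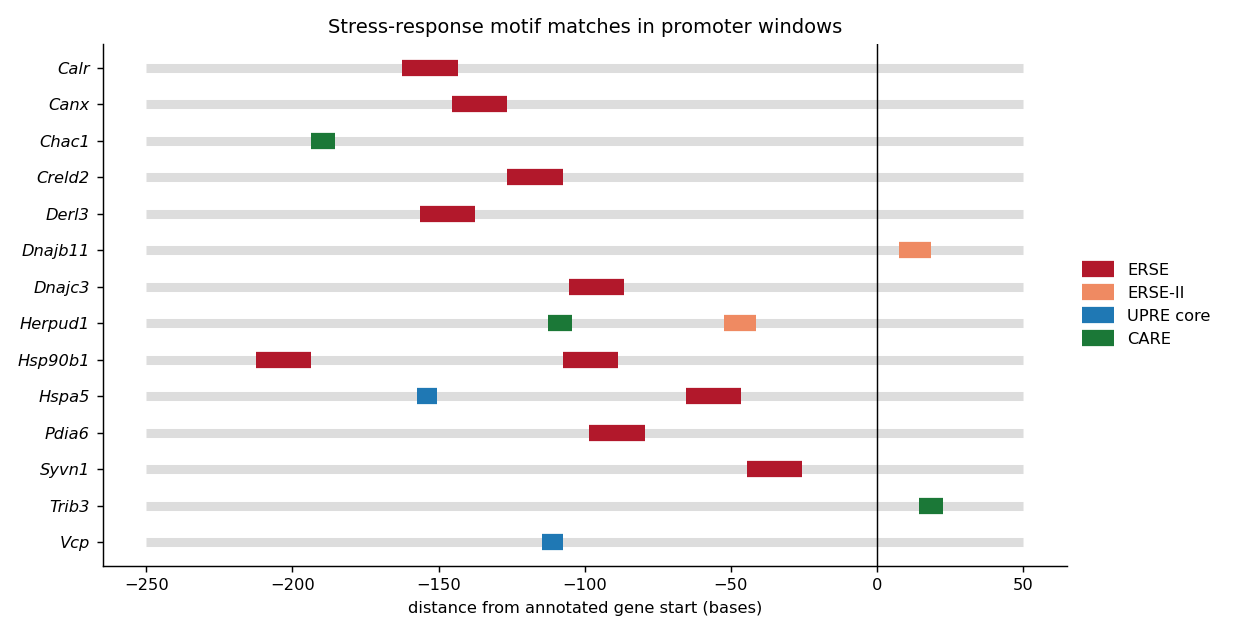
Positions of 4 stress-response motifs in the promoter windows of the 14 genes that held any, in bases from the annotated gene start (vertical line); grey bars are the windows from -250 to 50. The ERSE is in 9 of the 14 genes, and the Hspa5 copy lies from -65 to -47.

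Injured kidneys after L. casei Zhang had less of the BiP chaperone system than injured kidneys with no gavage given. In IRLacz against IR, 14 of the 38 genes were lower and 0 were higher by limma at an adjusted p under 0.05, the rule for a call used throughout. That is 36.8% of the genes, against 7.92% lower and 5.39% higher among all entries tested. Chaperones of the BiP system, Hspa5, Creld2, Sdf2l1 and Manf, fell furthest, to 0.52 to 0.55 times the IR mean. The calls gathered in the folding machinery: 7 of 10 genes of BiP and its partners, 4 of 6 lectin chaperones and disulfide isomerases, 2 of 8 translocon genes, 1 of 9 degradation genes and 0 of 5 sensors and PERK effectors were lower. At an unadjusted p under 0.05 there were 18 genes, all lower, against 30.7% of all entries in either direction, and the sensors and effectors had 0. The median log2 difference over the 38 genes was -0.15, against -0.0041 over all entries, and 32 of 38 values were negative, or 84.2%, against 50.9% of all entries. In 12 of the 38 genes, all among the 14 lower, every IRLacz library was below every IR library, against 6.85% of all entries. The count was 12 to 14 under the 3 other scalings of the libraries, and 12 genes were lower under all 4 scalings.

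The libraries behind this count were not equal. Leaving out IR replicate 3 or IRLacz replicate 2 left 9 genes lower in each case, while the share of all entries that were lower came to 2.74% and 3.73%. The 9 genes lower in all 9 such fits were Hspa5, Hsp90b1, Hyou1, Sdf2l1, Manf, Creld2, Calr, Pdia4 and Pdia6. Without both IR replicate 3 and replicate 5, a choice made after seeing the data, 10 genes and 4.15% of all entries were lower, and without IRLacz replicate 1 it was 15 genes and 3.47%. With only the libraries of IRLacz and IR in the model, 10 genes and 4.1% of all entries were lower, and Dnajb11, Syvn1, Sec61a1 and Sec61b lost the call (limma adjusted p = 0.073, 0.066, 0.107 and 0.080).

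IR, taken on day 5 after the injury, was also compared with sham, whose day is not given. On the deposited scale 22 of the 38 genes exceeded sham and 6 were below it in IR, 28 in all, against 57% and 18.6% of all entries and 75.6% in either direction, so the genes moved much as the table did. The median log2 difference was 0.23 for the 38 genes and 0.29 for all entries. That common shift depends on scaling: it was 0.0037 after median-ratio scaling, -0.0609 after quantile scaling and 0.34 after conversion to TPM. With it, the count of the 38 genes became 6 higher and 15 lower under median-ratio scaling (35% and 35.3% of all entries), 14 higher and 12 lower under quantile scaling (31.1% and 38.9%), and 24 higher and 5 lower as TPM (58.7% and 17.4%). The libraries of IR and sham did not overlap in 14 genes with IR above (48.6% of all entries) and 6 with IR below (15.2%). Under all 4 scalings 6 genes were higher, Hsp90b1, Sdf2l1, Pdia6, Trib3, Chac1 and Sec61a1, and 5 were lower, Dnajc3, P4hb, Herpud1, Edem1 and Serp1. Herpud1 and Edem1, among the lower, are known targets of the unfolded protein response, as are Sdf2l1, Hsp90b1 and Pdia6 among the higher.

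**Figure D2:**
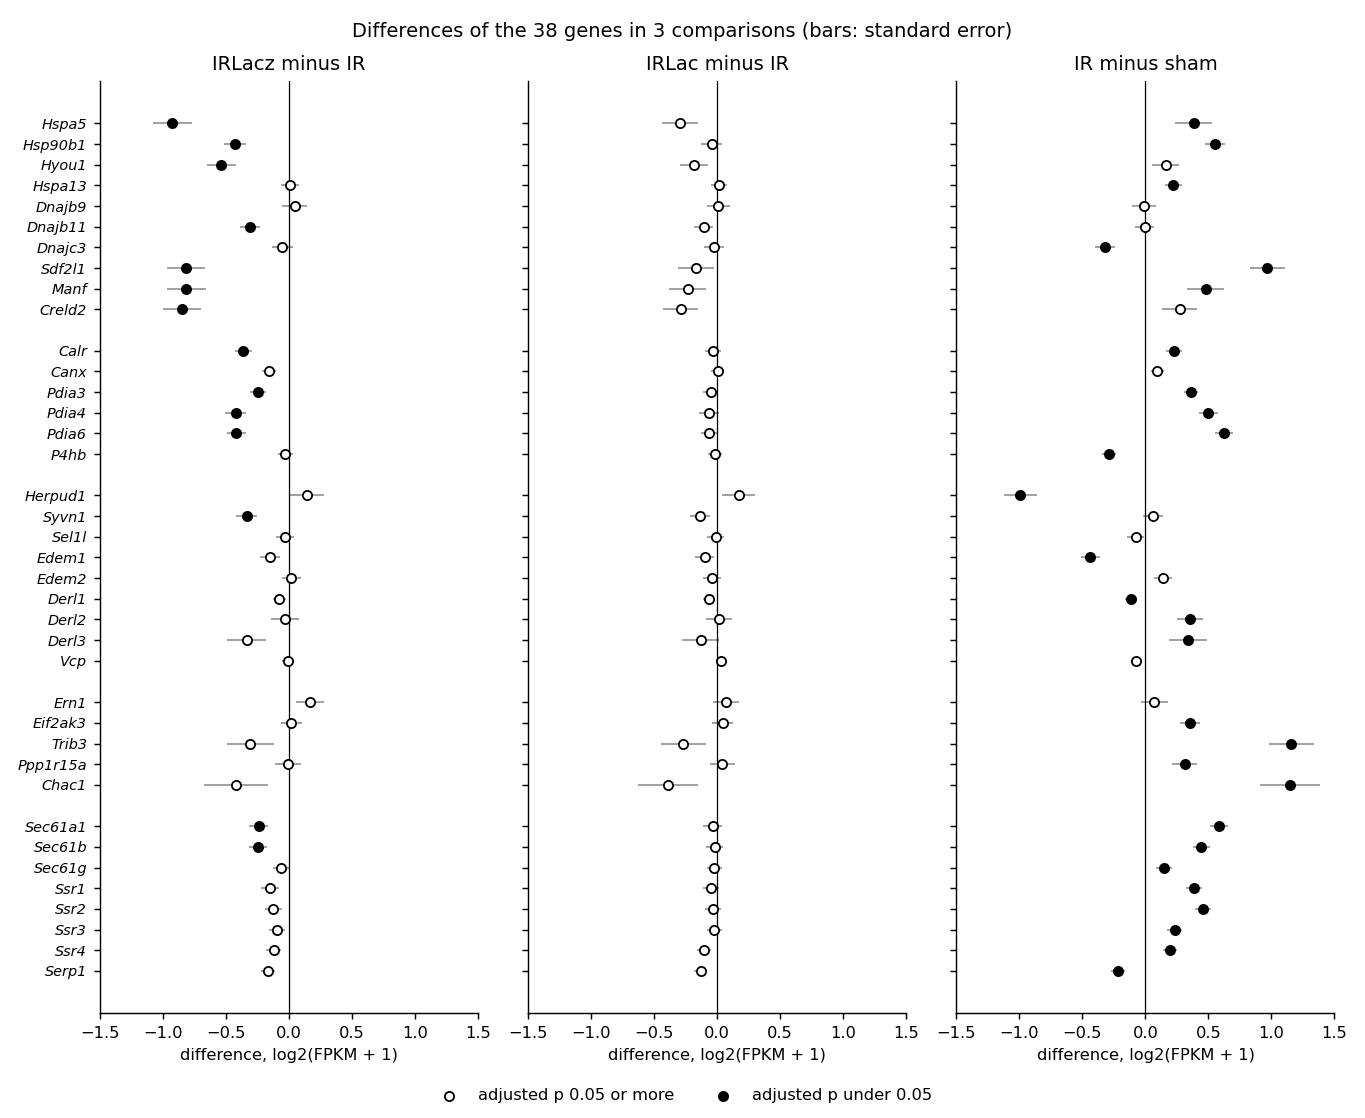
Log2 differences (horizontal axis, log2(FPKM + 1) scale) of the 38 genes for IRLacz minus IR, IRLac minus IR and IR minus sham, with standard errors as bars and filled points for an adjusted p under 0.05. Of the filled points, 14 lie left of 0 for IRLacz minus IR and none right of it, none is filled for IRLac minus IR, and 22 lie right and 6 left for IR minus sham, a split that other scalings change.

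Among BiP and its partners, Hspa5 (gene ID 14828), the central chaperone of the ER lumen, had 179.55, 141.75, 185.50 and 139.88 FPKM in the 4 IRLacz libraries. It had 304.49, 240.63, 249.50, 213.90 and 241.47 FPKM in IRLac, 285.94, 333.67, 421.86, 298.09 and 219.89 FPKM in IR, and 192.24, 273.25, 223.45, 230.92 and 257.95 FPKM in sham. Every IRLacz library was below every other library of the series, while IR overlapped both IRLac and sham. The log2 difference between IRLacz and IR was -0.92 (SE 0.15, limma adjusted p = 0.0049) and held in all alternatives tried. Between IR and sham it was 0.38 (SE 0.14, adjusted p = 0.023), a call lost without IR replicate 2, IR replicate 3 or sham replicate 1 (adjusted p up to 0.081) and under median-ratio scaling (0.04, adjusted p = 0.83).

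Creld2 (76737), an ER-stress-induced secreted protein with disulfide isomerase activity, was at 21.34, 21.86, 21.65 and 22.10 FPKM in IRLacz. It was at 40.00, 28.07, 34.73, 31.47 and 29.35 FPKM in IRLac, 38.99, 42.89, 59.54, 35.14 and 28.83 FPKM in IR, and 27.12, 39.24, 33.18, 31.62 and 34.54 FPKM in sham. The IRLacz libraries lay within 1 FPKM of each other and below all others. The IR libraries spread widely, and IR overlapped sham. The difference between IRLacz and IR was -0.85 (limma adjusted p = 0.0058), and that between IR and sham was 0.27 (adjusted p = 0.091).

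Sdf2l1, which joins BiP and its J-protein partners in keeping chains soluble, was at 18.63, 19.87, 21.08 and 21.84 FPKM in IRLacz. Values were 39.49, 26.80, 32.52, 36.16 and 28.75 FPKM in IRLac, 38.41, 41.12, 48.95, 30.81 and 27.25 FPKM in IR, and 14.68, 18.17, 17.90, 23.08 and 18.05 FPKM in sham. IRLacz overlapped sham and lay below every IRLac and IR library. The difference was -0.82 between IRLacz and IR (limma adjusted p = 0.0060) and 0.97 between IR and sham (adjusted p = 6.1e-06), and both calls held under all 4 scalings.

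Of the other BiP partners, Manf, a secreted ER-stress factor that binds BiP, averaged 26.77 ± 2.68 FPKM in IRLacz and 49.21 ± 14.5 FPKM in IR. Hyou1, the exchange factor that reloads BiP, averaged 26.71 ± 1.47 FPKM in IRLacz and 39.73 ± 7.98 FPKM in IR, and its IRLacz libraries also lay below all 15 others. Hsp90b1, the ER member of the HSP90 family, averaged 179.7 ± 9.53 FPKM in IRLacz and 242.0 ± 24.2 FPKM in IR, and Dnajb11, a J-protein that hands chains to BiP, 51.15 ± 4.05 FPKM in IRLacz and 63.67 ± 7.73 FPKM in IR. These 4 genes were lower in IRLacz (log2 differences -0.81, -0.54, -0.42 and -0.31, limma adjusted p = 0.0064, 0.0098, 0.0079 and 0.021), although Dnajb11 lost the call without IR replicate 2, IR replicate 3 or IRLacz replicate 2 (adjusted p up to 0.061).

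The remaining partners did not pass. The J-protein Dnajb9 averaged 28.08 ± 0.979 FPKM in IRLacz and 27.24 ± 3.25 FPKM in IR, and the BiP relative Hspa13 averaged 8.633 ± 0.605 and 8.552 ± 0.391 FPKM in these groups. Dnajc3, which also restrains PERK, averaged 27.98 ± 4.69 FPKM in IRLacz, 28.24 ± 1.16 in IRLac and 28.77 ± 1.58 in IR, against 36.14 ± 2.73 FPKM in sham. It was lower in IR than in sham (-0.32, limma adjusted p = 0.0014), alone among the BiP partners on the deposited scale, and this held under all 4 scalings. Dnajb9 and Dnajb11 were also called lower under median-ratio scaling (-0.34 and -0.35), and Dnajb9 under quantile scaling (-0.23). The summed FPKM of the 10 genes was 552.7 ± 41.1 in IRLacz, 748.1 ± 58.1 in IRLac, 849.4 ± 148 in IR and 655.8 ± 65.3 in sham. In IR, replicate 3 held the highest value of 8 of the 10 genes and replicate 5 the lowest of 8.

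**Figure D3:**
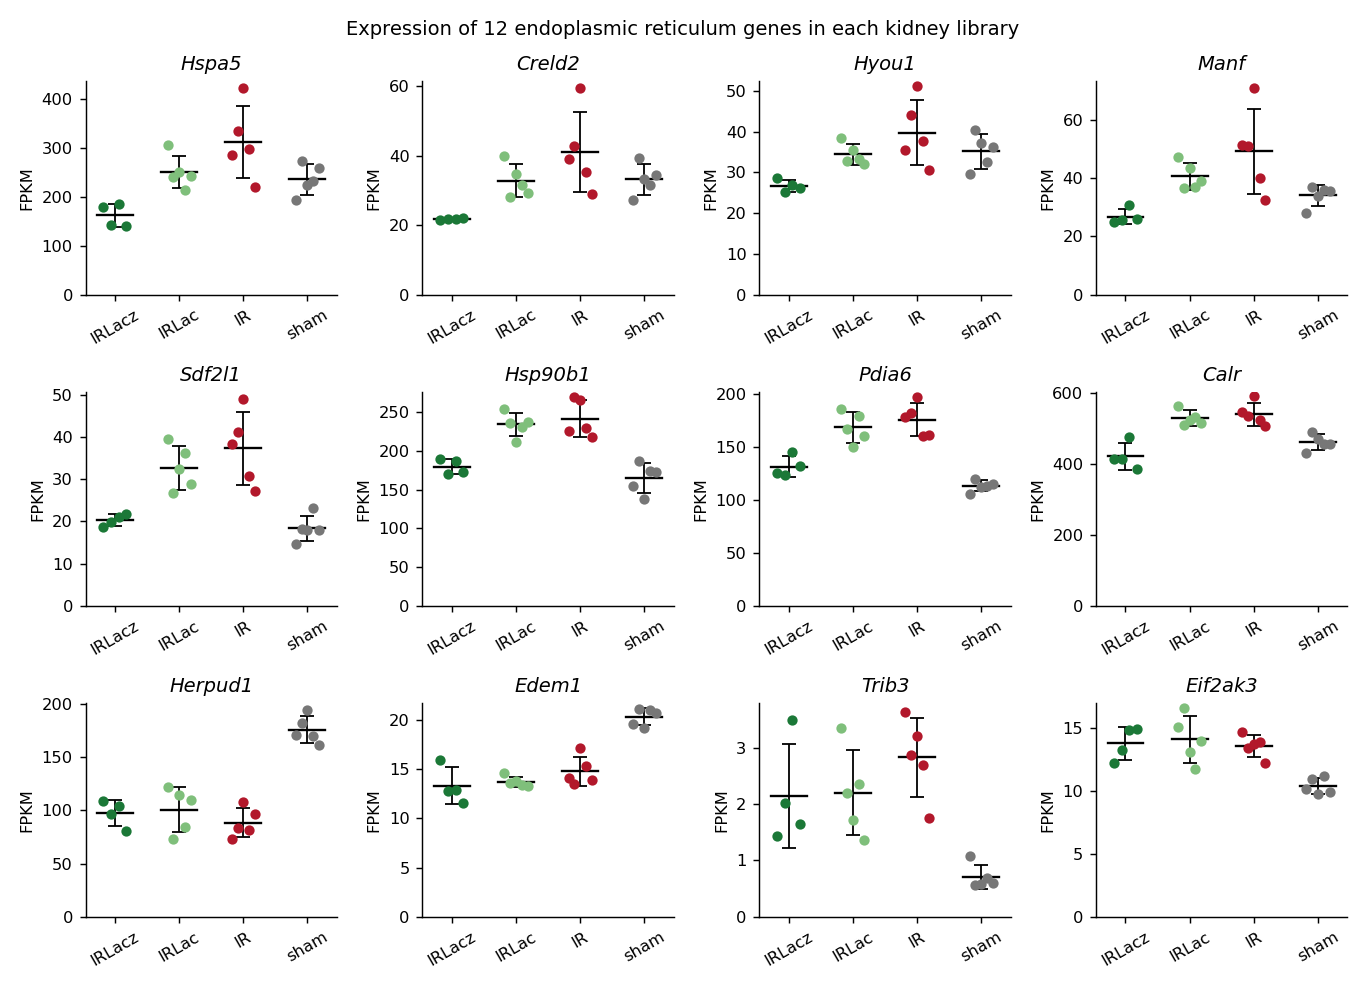
FPKM of 12 of the 38 genes in each library (points), with the group mean and SD (bars), for IRLacz, IRLac, IR and sham. Hspa5, Creld2 and Hyou1 are lowest in all 4 IRLacz libraries, whereas Herpud1 and Edem1 are lower in the 3 injured groups than in sham and Trib3 and Eif2ak3 higher, a difference from sham that for Eif2ak3 shrinks to near 0 under median-ratio and quantile scaling.

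Of the lectin chaperones and disulfide isomerases, Pdia6, an isomerase that also acts on the luminal side of the sensors, had 125.10, 123.50, 145.44 and 132.45 FPKM in IRLacz. It had 186.03, 167.44, 150.31, 179.31 and 160.09 FPKM in IRLac, 178.50, 181.87, 197.43, 160.77 and 161.22 FPKM in IR, and 105.68, 120.26, 112.22, 113.42 and 115.47 FPKM in sham. All IRLacz libraries fell between the sham libraries and the libraries of the other injured groups, without overlap. The difference was -0.41 between IRLacz and IR (SE 0.07, limma adjusted p = 0.0058) and 0.63 between IR and sham (adjusted p = 3.5e-07), and both calls held under all 4 scalings.

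Calr, the soluble lectin chaperone, averaged 420.7 ± 38.3 FPKM in IRLacz and 539.7 ± 32.4 FPKM in IR. Its partner isomerase Pdia3 averaged 205.7 ± 7.54 FPKM in IRLacz and 243.5 ± 8.34 FPKM in IR, and Pdia4, a multidomain isomerase, 49.58 ± 2.48 FPKM in IRLacz and 66.93 ± 7.41 FPKM in IR. These 3 genes were lower in IRLacz by -0.36, -0.24 and -0.42 on the log2 scale (limma adjusted p = 0.0061, 0.018 and 0.0071), with no overlap between the groups. Pdia3 lost the call under quantile scaling (adjusted p = 0.073) and without IR replicate 3 or IRLacz replicate 2 (adjusted p = 0.054 each). Canx, the membrane-bound lectin, averaged 104.1 ± 5.27 FPKM in IRLacz and 116.0 ± 3.69 FPKM in IR (-0.16, adjusted p = 0.060).

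P4hb, the most abundant of the isomerases and a subunit of collagen prolyl hydroxylase, took another course. It averaged 279.7 ± 17.8 FPKM in IRLacz, 282.0 ± 16.7 FPKM in IRLac, 285.1 ± 12 FPKM in IR and 349.2 ± 13.7 FPKM in sham. All injured libraries were below all sham libraries, and the fall in IR (-0.29, limma adjusted p = 0.00013) held under all 4 scalings. Calr, Pdia3, Pdia4 and Pdia6 were higher in IR than in sham, but Calr turned to -0.11 under median-ratio scaling, where Pdia3 and Pdia4 were also not called.

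Of the 9 degradation genes, 2 were higher (both negative under quantile scaling) and 3 lower in IR against sham on the deposited scale. The shares of all entries were 57% and 18.6%. In IRLacz against IR 1 of the 9 was lower, against 7.92% of all entries. Herpud1 (64209), a membrane protein that organises the retrotranslocation complex and is a classic stress target, had 108.87, 96.68, 104.57 and 80.27 FPKM in IRLacz. It had 122.11, 73.48, 114.31, 83.97 and 110.22 FPKM in IRLac, 72.70, 83.59, 107.59, 81.64 and 96.82 FPKM in IR, and 170.76, 182.01, 194.61, 170.33 and 161.76 FPKM in sham. Every sham library was above every injured library, and the injured groups overlapped. The difference between IR and sham was -0.99 (SE 0.13, limma adjusted p = 2.1e-06), the largest fall among the 38 genes, and that between IRLacz and IR was 0.14 (adjusted p = 0.50).

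Syvn1 (74126), the ubiquitin ligase HRD1 at the core of the degradation complex, had 17.52, 16.99, 19.59 and 19.59 FPKM in IRLacz. It had 22.42, 20.33, 21.80, 23.51 and 18.55 FPKM in IRLac, 23.19, 24.29, 28.22, 22.41 and 19.74 FPKM in IR, and 22.47, 23.49, 21.68, 22.36 and 22.35 FPKM in sham. IRLacz lay below IR and sham and overlapped IRLac. It was the 1 degradation gene lower in IRLacz than in IR (-0.33, limma adjusted p = 0.018), and without IR replicate 3 or IRLacz replicate 2 the adjusted p was 0.053 and 0.061. Between IR and sham it was not called on the deposited scale (0.06, adjusted p = 0.51) and was lower under median-ratio (-0.27) and quantile scaling (-0.20).

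Edem1, a mannosidase-like protein that marks misfolded glycoproteins for removal, averaged 13.30 ± 1.88 FPKM in IRLacz, 13.70 ± 0.536 FPKM in IRLac, 14.78 ± 1.48 FPKM in IR and 20.32 ± 0.875 FPKM in sham. It fell in IR by 0.44 on the log2 scale of the deposited values (limma adjusted p = 3.4e-05), with no overlap with sham. The call held under all 4 scalings. Derl1, a derlin of the retrotranslocation channel, was also lower in IR than in sham (-0.12, adjusted p = 0.029), a call lost as TPM and without IR replicate 2, IR replicate 3, sham replicate 3 or sham replicate 4 (adjusted p up to 0.067). Derl2 and Derl3 were called higher in IR than in sham on the deposited scale and had negative values, -0.13 and -0.20, under quantile scaling. The call of Derl3 was lost when any of 7 libraries was left out (IR replicates 2, 3 and 5, sham replicates 1, 3, 4 and 5, adjusted p up to 0.149). Sel1l (the partner of Syvn1), Edem2 and Vcp, the ATPase that pulls chains out, were called on that scale neither in IRLacz against IR nor in IR against sham. Summed over the 9 degradation genes, FPKM was 373.2 ± 15.2 in IRLacz, 383.8 ± 20.6 in IRLac, 374.2 ± 18.1 in IR and 475.2 ± 7.57 in sham.

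On the deposited scale 4 of the 5 sensors and PERK-branch effectors (all but Ern1) exceeded sham in each injured group. Of all entries 57% did so in IR, 56.9% in IRLacz and 58% in IRLac. Ppp1r15a changed sign and Eif2ak3 was near 0 under quantile scaling. Trib3 and Chac1 were higher than sham under all 4 scalings in IR, but not in IRLacz or IRLac. Between IRLacz and IR 0 of 5 were called. Trib3, a pseudokinase induced by ATF4 and CHOP, had 1.44, 2.01, 3.49 and 1.65 FPKM in IRLacz and 3.35, 2.19, 1.72, 2.36 and 1.37 FPKM in IRLac. It had 3.63, 2.87, 3.21, 2.69 and 1.75 FPKM in IR and 1.07, 0.57, 0.59, 0.68 and 0.60 FPKM in sham. All injured libraries were above all sham libraries, and the injured groups overlapped. The difference between IR and sham was 1.16 (SE 0.18, limma adjusted p = 1.2e-05), and that between IRLacz and IR was -0.30 (SE 0.19, adjusted p = 0.28).

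Chac1, an enzyme that breaks down glutathione and is induced through ATF4, had 0.84, 1.67, 2.59 and 1.65 FPKM in IRLacz and 3.49, 2.12, 1.61, 0.81 and 1.07 FPKM in IRLac. It had 2.43, 1.19, 4.38, 2.81 and 2.41 FPKM in IR and 0.62, 0.84, 0.48, 0.41 and 0.58 FPKM in sham. IR lay above sham without overlap, and both gavaged groups reached down to the sham range. The difference was 1.15 between IR and sham (SE 0.24, limma adjusted p = 0.00028) and -0.42 between IRLacz and IR (SE 0.25, adjusted p = 0.26). At these low levels the log2(FPKM + 1) scale understates a change.

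Eif2ak3, which encodes the sensor PERK itself, had 12.23, 13.31, 14.86 and 14.96 FPKM in IRLacz and 15.12, 16.66, 13.12, 11.74 and 13.97 FPKM in IRLac. It had 14.73, 13.42, 13.77, 13.89 and 12.23 FPKM in IR and 10.18, 10.98, 9.80, 11.22 and 9.91 FPKM in sham. All sham libraries were below all injured libraries, with a difference of 0.35 between IR and sham (limma adjusted p = 0.00063) that came to 0.04 under median-ratio scaling and 0.0017 under quantile scaling.

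Ppp1r15a (GADD34), which restores translation after PERK has slowed it, had 8.31, 11.31, 8.80 and 11.49 FPKM in IRLacz and 12.39, 10.38, 9.30, 10 and 9.30 FPKM in IRLac. It had 10.88, 10.37, 10.13, 8.38 and 9.94 FPKM in IR and 7.21, 7.67, 8.28, 8.90 and 7.02 FPKM in sham. IR was mostly above sham and overlapped it in 1 library, and the call (0.31, limma adjusted p = 0.0076) turned to -0.08 under quantile scaling.

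Ern1, which encodes the sensor IRE1, had 3.77, 4.09, 4.58 and 4.84 FPKM in IRLacz and 4.58, 4.80, 3.08, 3.19 and 4.43 FPKM in IRLac. It had 3.53, 3.57, 3.32, 4.10 and 4.15 FPKM in IR and 3.98, 2.90, 3.81, 3.15 and 3.76 FPKM in sham. All 4 groups overlapped. Neither IRLacz against IR (0.17, limma adjusted p = 0.32) nor IR against sham (0.07, adjusted p = 0.56) was called, and under quantile scaling IR was lower than sham (-0.43).

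Of the translocon genes, Sec61b, a small subunit of the import channel, had 107.90, 122.86, 130.73 and 120.00 FPKM in IRLacz and 137.79, 142.19, 137.99, 155.37 and 130.12 FPKM in IRLac. It had 145.76, 149.04, 152.43, 127.90 and 138.31 FPKM in IR and 105.72, 96.56, 107.51, 114.74 and 98.64 FPKM in sham. IRLacz overlapped both IR and sham, and IR lay above sham. The difference between IRLacz and IR was -0.24 (limma adjusted p = 0.032) and the call was lost without IR replicate 1, 2 or 3 or IRLacz replicate 1 or 2 (adjusted p up to 0.096).

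Sec61a1, the pore-forming subunit, had 50.20, 58.39, 63.87 and 63.00 FPKM in IRLacz and 71.77, 72.76, 60.75, 70.67 and 63.12 FPKM in IRLac. It had 75.03, 70.86, 72.42, 65.76 and 63.37 FPKM in IR and 43.95, 46.10, 49.63, 46.85 and 43.37 FPKM in sham. Every injured library was above every sham library. On the deposited scale IR exceeded sham by 0.58 (limma adjusted p = 1.0e-06), a call that held under all 4 scalings. IRLacz overlapped IR, with a difference of -0.24 (adjusted p = 0.046) that was lost without any of the same 5 libraries (adjusted p up to 0.152), under quantile scaling and as TPM.

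The translocon-associated genes Ssr1 to Ssr4 and the small channel subunit Sec61g were not called in IRLacz against IR, with log2 differences of -0.15 to -0.06. They were higher in IR than in sham on the deposited scale, but Sec61g, Ssr3 and Ssr4 turned negative under median-ratio scaling (-0.19, -0.11 and -0.15). The call of Sec61g was lost when any library but IR replicate 4 or sham replicate 2 was left out (adjusted p up to 0.104). Serp1, which stabilises membrane proteins at the translocon under stress, went the other way: it averaged 85.50 ± 7.15 FPKM in IRLacz, 87.25 ± 4.00 FPKM in IRLac, 95.50 ± 2.61 FPKM in IR and 111.4 ± 4.50 FPKM in sham. The difference between IR and sham was -0.22 on the deposited scale (limma adjusted p = 0.0011). The call held under all 4 scalings, and all injured libraries were below all sham libraries.

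**Figure D4:**
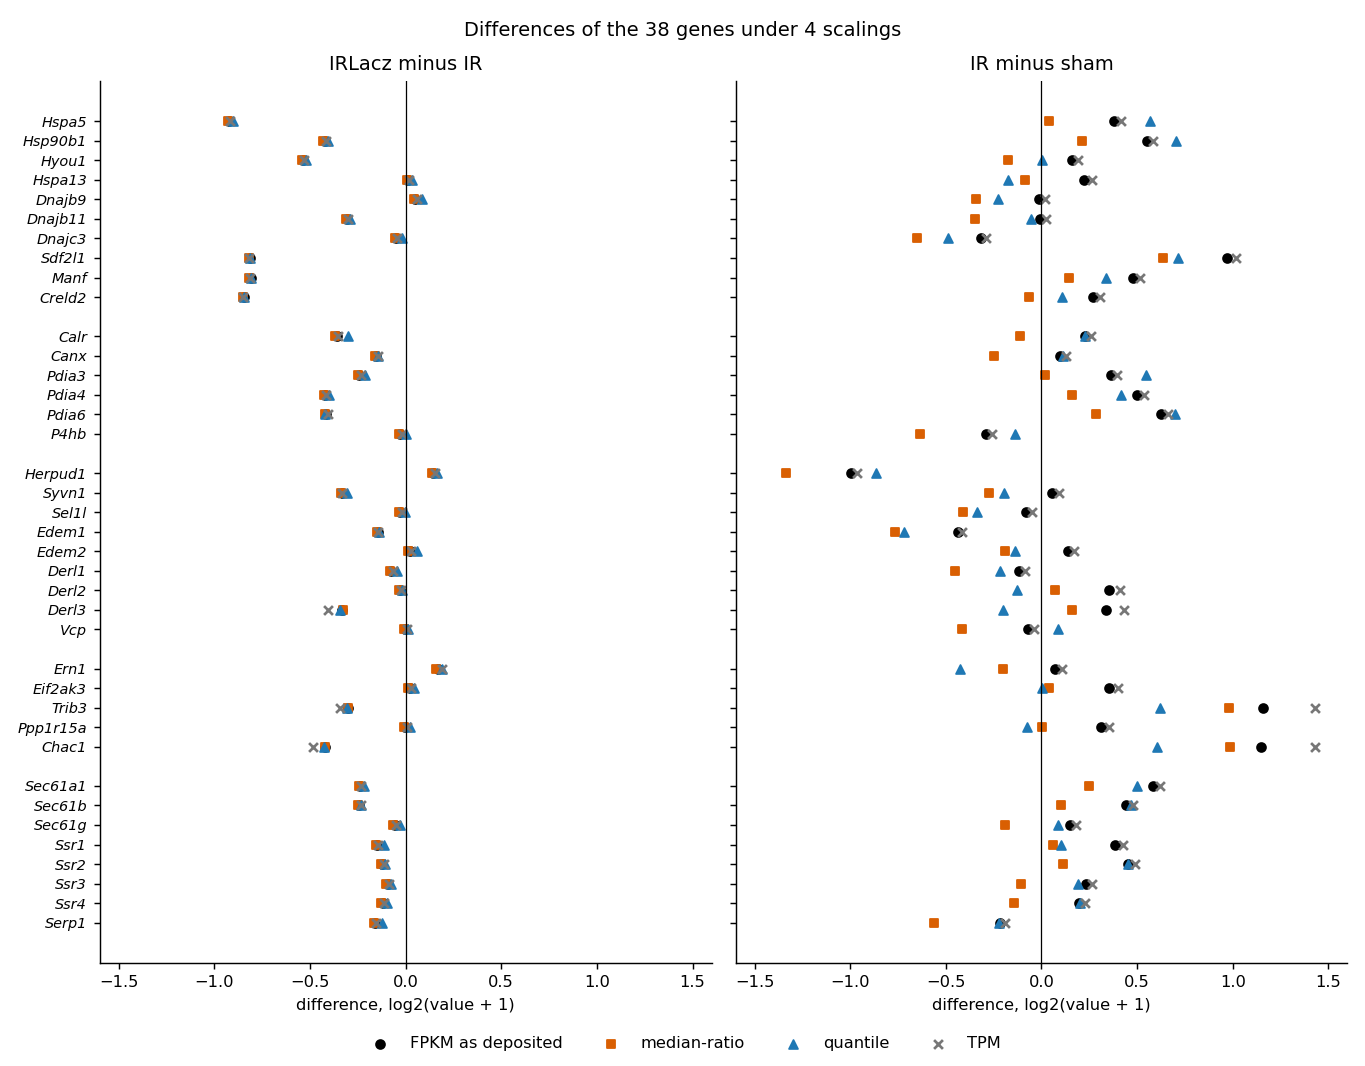
Log2 differences of the 38 genes for IRLacz minus IR and IR minus sham under 4 scalings of the same values (FPKM as deposited, median-ratio, quantile and TPM). The symbols nearly coincide for IRLacz minus IR, where 12 genes were lower under all 4, and spread for IR minus sham, where 6 genes were higher and 5 lower under all 4 and several change sign.

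Set against sham, the 14 genes lower in IRLacz than in IR fell into 4 kinds. On the deposited scale 10 exceeded sham in IR, of which Calr turned negative under median-ratio scaling. In IRLacz, 3 of the 10 still exceeded sham (Pdia6, Sec61a1 and Sec61b, of which Pdia6 and Sec61b turned negative under median-ratio scaling). Another 6 were not called against sham, and Hspa5 was lower. Among those 6, Hsp90b1, Pdia3 and Pdia4 were called lower than sham under median-ratio scaling. The other 4, Hyou1, Dnajb11, Creld2 and Syvn1, were not called in IR against sham and were lower in IRLacz than in sham. All comparisons with IRLacz share its 4 libraries. The differences between IRLacz and sham were -0.54 for Hspa5 (limma adjusted p = 0.0043), -0.58 for Creld2 (0.0024), -0.38 for Hyou1 (0.0074), -0.31 for Dnajb11 (0.0022) and -0.28 for Syvn1 (0.0069). All but that of Hspa5, which had an adjusted p of 0.071 under quantile scaling, were called under all 4 scalings.

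Over the 38 genes, IRLacz exceeded sham in 11 and was below it in 11, against 56.9% and 13.5% of all entries and 70.3% in either direction. Its libraries did not overlap those of sham in 6 genes above (45.1% of all entries) and 10 below (10%). The split was 1 higher and 24 lower under median-ratio scaling (30.1% and 32% of all entries), 6 and 13 under quantile scaling (25.9% and 31%), and 14 and 11 as TPM (59.5% and 11.9%). The median log2 difference was 0.08 for the 38 genes and 0.29 for all entries. Of the 11 higher genes, Hspa13, Pdia6, Derl2, Ppp1r15a, Sec61b, Ssr1 and Ssr2 changed sign under median-ratio or quantile scaling, and Eif2ak3, Trib3, Chac1 and Sec61a1 did not, though none of the 4 was called under all scalings. Without IRLacz replicate 3 the calls of Chac1, Pdia6 and Sec61b against sham were lost (adjusted p = 0.068, 0.078 and 0.074), and without IRLacz replicate 2 or 4 that of Ppp1r15a (adjusted p = 0.055 and 0.060). In IRLac against sham, 17 were higher and 6 lower, against 58% and 16.8% of all entries and 74.8% in either direction. The split was 5 and 18 under median-ratio scaling (33% and 34.5% of all entries), 12 and 10 under quantile scaling (30.5% and 35.5%), and 20 and 6 as TPM (60% and 15.4%). Libraries did not overlap in 14 genes above sham (46.6% of all entries) and 6 below (11.8%). Of the calls, 3 of the higher (Sdf2l1, Pdia6 and Sec61a1) and all 6 of the lower (Dnajc3, P4hb, Herpud1, Edem1, Derl1 and Serp1) were called under all 4 scalings. After their values had been seen, the genes in which all 4 IRLacz libraries lay below all 15 others were counted: 12 entries of 13594 (0.0883%) did so, and Hspa5, Hyou1 and Creld2 were 3 of the 12. Above all 15 others there were 41 entries (0.302%) and 0 of the 38 genes.

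In IRLac against IR, limma called 0 of the 38 genes, against 0.00736% of all entries. Only 1 gene, Serp1, had an unadjusted p under 0.05, or 2.6% of the 38 against 5.8% of all entries. The lowest adjusted p was 0.75. The median log2 difference was -0.043, against 0.0024 for all entries, and standard errors ran from 0.045 to 0.238. Of the 38 values 76.3% were negative, against 48.9% of all entries. Without IR replicate 5 the calls were still 0 of 38, while 0.811% of all entries were lower and 0.0442% higher. Hspa5 in IRLac was 0.80 times its IR mean of 311.9 ± 74.0 FPKM (n = 5), a log2 difference of -0.30 (SE 0.14, adjusted p = 0.88). That of Creld2 was -0.29 (SE 0.14, adjusted p = 0.88).

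The gavaged groups were also compared directly, since a call against IR in 1 group and not in the other does not show that the groups differ. In IRLacz against IRLac, limma called 0 of the 38 genes, against 0.0221% of all entries in either direction and 0.0147% lower. At an unadjusted p under 0.05 there were 15 genes, all lower in IRLacz, or 39.5% of the 38 against 16% of all entries. The lowest adjusted p was 0.075, for Calr, and Hspa5 had a log2 difference of -0.63 (SE 0.15, adjusted p = 0.092). In 9 genes, Hspa5, Hsp90b1, Hyou1, Sdf2l1, Manf, Creld2, Calr, Pdia4 and Pdia6, every IRLacz library was below every IRLac library, against 1.57% of all entries. The count depended on 1 library: without IRLac replicate 3, 7 genes were lower (Hspa5, Hsp90b1, Sdf2l1, Calr, Pdia3, Pdia4 and Pdia6), as were 2.73% of all entries.

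The 9 genes with an ERSE in the promoter window held 6 of the 14 genes lower in IRLacz than in IR, namely Calr, Creld2, Hsp90b1, Hspa5, Pdia6 and Syvn1, while Canx, Derl3 and Dnajc3 were not called. Of the 23 genes with a window and no ERSE 5 were lower, and of the 6 genes without a window 3. Among all entries 7.92% were lower. In IR against sham, the 9 ERSE genes had 5 calls higher and 1 lower on the deposited scale, against 57% and 18.6% of all entries. Of these calls, Hsp90b1 and Pdia6 were higher and Dnajc3 below sham under all 4 scalings, while Calr and Derl3 changed sign under at least 1. Chac1 and Trib3, which hold the ATF4-type element, were higher in IR than in sham under all 4 scalings, and Herpud1, which holds it together with an ERSE-II, was lower. No test was made of these small groups.

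The wider pathway was described with 8 lists of 147 genes. Of the 16 transcription factors and activators of the unfolded protein response, 5 were lower and 0 higher for IRLacz against IR. The shares of all entries were 7.92% and 5.39%. In IR relative to sham 12 rose and 1 fell (9 and 4 under median-ratio scaling). Of all entries 57% rose and 18.6% fell (35% and 35.3% under median-ratio scaling). Atf4, the effector of PERK, averaged 71.44 ± 7.50 FPKM in IRLacz, 88.71 ± 12.3 FPKM in IRLac, 96.77 ± 10.2 FPKM in IR and 57.08 ± 6.53 FPKM in sham. It was lower in IRLacz than in IR (-0.43, limma adjusted p = 0.016) and higher in IR than in sham (0.75, adjusted p = 2.4e-06). Ddit3, which encodes CHOP, averaged 20.27 ± 2.44 FPKM in IRLacz, 20.59 ± 2.12 FPKM in IRLac, 29.40 ± 6.61 FPKM in IR and 13.77 ± 0.661 FPKM in sham, with differences of -0.49 (adjusted p = 0.027) and 1.01 (adjusted p = 1.6e-06) in the same comparisons. These 4 calls held under all 4 scalings.

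Xbp1, whose RNA is spliced by IRE1, averaged 75.59 ± 8.01 FPKM in IRLacz, 89.62 ± 7.85 FPKM in IRLac, 92.77 ± 14.0 FPKM in IR and 90.71 ± 9.76 FPKM in sham. IRLacz against IR gave -0.29 (limma adjusted p = 0.079), and gene-level FPKM does not separate spliced from unspliced Xbp1. Atf6 averaged 9.245 ± 0.509 FPKM in IRLacz and 8.110 ± 0.583 FPKM in IR (0.17, adjusted p = 0.12), and was called higher under quantile scaling (adjusted p = 0.037). Of 18 tested ATF4 targets of amino acid supply and stress, 3 were lower and 0 higher in IRLacz than in IR: Slc7a5, an amino acid carrier, Aldh18a1, an enzyme of proline synthesis, and Gdf15, a stress-induced secreted factor, at 56.15 ± 13.6 FPKM in IRLacz and 116.8 ± 29.9 FPKM in IR. Asns, asparagine synthetase, averaged 8.777 ± 2.93 FPKM in IRLacz, 11.82 ± 1.6 FPKM in IR and 2.328 ± 0.522 FPKM in sham. It rose in IR over sham by 1.95 (adjusted p = 8.7e-08) and was not called in IRLacz against IR (adjusted p = 0.16).

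Lists next to the folding machinery were lower in part. Of the 14 tested collagen-folding genes, 7 were lower and 0 higher in IRLacz than in IR, with a median of -0.26. In IR 13 were higher than in sham, against 57% of all entries (11 under median-ratio scaling, against 35%). Serpinh1, the collagen chaperone HSP47, averaged 145.7 ± 28.3 FPKM in IRLacz, 243.8 ± 50.4 FPKM in IRLac, 271.3 ± 38.4 FPKM in IR and 61.11 ± 5.78 FPKM in sham (IRLacz against IR -0.90, limma adjusted p = 0.0049). Of 20 ER-to-Golgi genes 5 were lower, among them Kdelr2, which returns BiP and other residents to the ER, at 35.45 ± 2.80 FPKM in IRLacz, 44.54 ± 3.90 FPKM in IRLac, 44.94 ± 2.65 FPKM in IR and 32.53 ± 1.39 FPKM in sham. N-glycosylation had 4 of 16 lower, including the glucosidase Mogs (-0.37, adjusted p = 0.0061), and the other chaperones and oxidoreductases 4 of 25.

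Other degradation genes and signal peptide genes had few calls in IRLacz against IR. Of 18 other degradation genes 1 was higher (Erlec1, a lectin of the degradation complex) and 1 lower (Ube2g2, a ubiquitin-conjugating enzyme). At an unadjusted p under 0.05 by limma, 1 was higher and 5 were lower, against 30.7% of all entries in either direction. Signal peptide targeting and cleavage had 0 of 17 called in either direction in IRLacz against IR by limma. At an unadjusted p under 0.05, 3 of the 17 were lower, against the same 30.7% of all entries. In IRLac against IR limma called 0 genes in each of the 8 lists. At an unadjusted p under 0.05, 2 genes in all were lower, against 5.78% of all entries in either direction. In IR against sham the counts of the remaining lists moved with the scaling, as did the shares of all entries. Those shares were 57% higher and 18.6% lower on the deposited scale (35% and 35.3% under median-ratio scaling). On the same scales the ATF4 targets had 10 higher and 3 lower (10 and 5), and other chaperones 19 and 2 (10 and 7). ER-to-Golgi transport had 11 and 5 (3 and 12) and N-glycosylation 10 and 1 (2 and 6). Other degradation genes had 8 and 2 (3 and 11) and signal peptide genes 10 and 0 (1 and 6). The bar plot of shares by list sets the counts of IRLacz against IR beside the 7.92% of all entries.

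**Figure D5:**
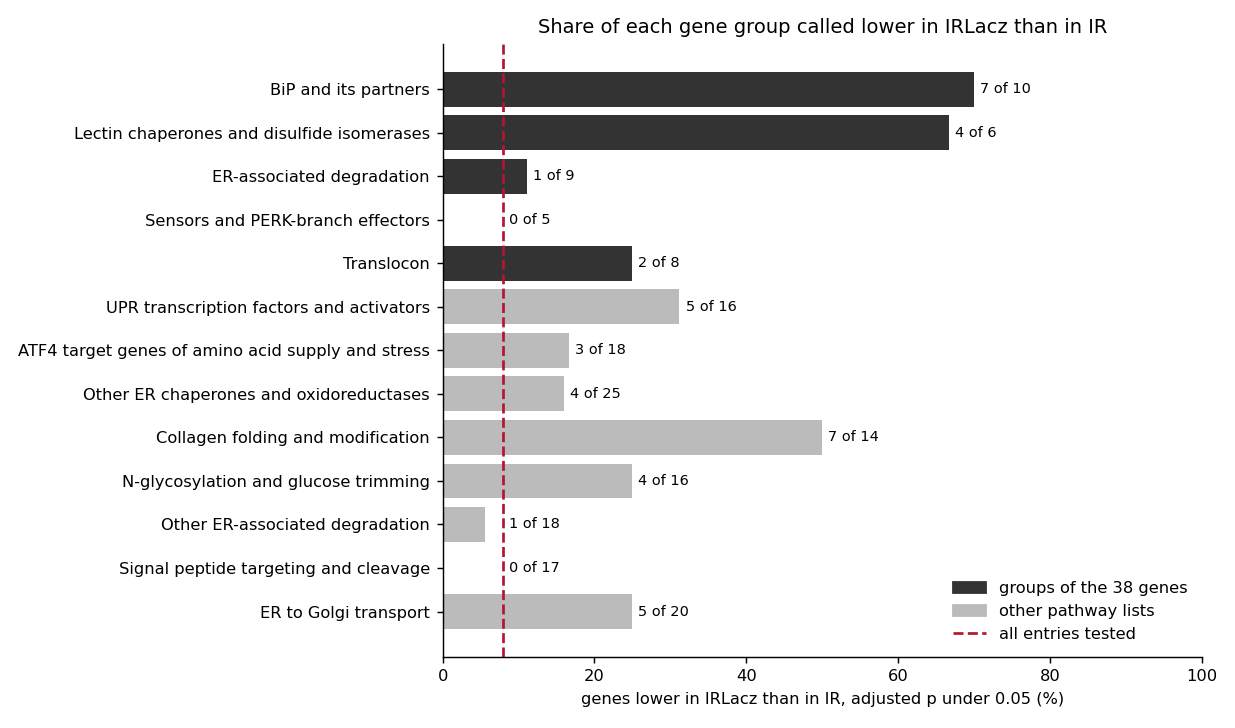
Share of genes (%) called lower in IRLacz than in IR in the 5 groups of the 38 genes (dark bars) and the 8 other pathway lists (light bars), with the share of all entries tested as a dashed line at 7.92%. BiP and its partners (7 of 10), the lectin chaperones and isomerases (4 of 6) and collagen folding (7 of 14) stand highest.

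Markers of some cell types were lower in IRLacz than in IR, as the folding genes were, and markers of others were higher. In IRLacz against IR, 4 of 7 fibroblast markers were lower, and their summed FPKM ran from 247.78 to 391.98 in IRLacz, from 521.77 to 633.85 in IR and from 46.52 to 70.50 in sham. For macrophages 5 of 7 were lower, with sums of 454.68 to 1038.99 in IRLacz, 1095.21 to 1563.07 in IR and 83.69 to 113.46 in sham, and 3 of 3 cycling markers were lower. Higher in IRLacz than in IR were 2 of 4 podocyte and 2 of 6 distal tubule and collecting duct markers. At an unadjusted p under 0.05 by limma 3 podocyte and 5 distal tubule and collecting duct markers were higher, against 30.7% of all entries in either direction. In IRLac against IR limma called no marker of any list. In IRLacz against IR, 0 of 7 proximal tubule markers were called. Of 5 injured-tubule markers 0 were called by limma in IRLacz against IR. All 5 values were negative (median log2 difference -0.565), and 2 were lower at an unadjusted p under 0.05, against 30.7% of all entries in either direction. Their summed FPKM ran from 287.3 to 1118.56 in IRLacz, from 779.57 to 1207.4 in IR and from 6.94 to 9.53 in sham. IRLacz replicate 1 held the lowest IRLacz value of all 5. Havcr1 was 138.13 FPKM in that library, 304.68 to 552.67 FPKM in the other IRLacz libraries and 402.89 to 541.75 FPKM in IR. Vcam1 was 33.0, 109.05 to 167.52 and 75.77 to 126.18 FPKM in the same order. The injured-tubule differences were not fitted without that library. The part of these markers in the fall of the folding genes was not tested. Plasma cell markers were low, with sums of 5.14 to 7.06 in IRLacz, 3.72 to 8.91 in IR and 3.05 to 6.14 in sham, and Cd79a and Tnfrsf17 stayed under 1 FPKM in all libraries. In IR against sham all 7 proximal tubule markers were lower and all 7 fibroblast, 7 macrophage and 5 injured-tubule markers higher, under all 4 scalings, and their part in the differences of the 38 genes was not tested.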

How the data were processed

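The deposited table gives FPKM per gene and library, values that the authors computed before deposit. Per the submitters' processing notes, mm9 was the mouse build, and StringTie 1.0.4 and HISAT are listed without roles. The low values did not resolve into whole reads: 34.6% of 3692 values in 808 low genes lay within 0.1 of a whole multiple, against 20% with no steps. No count model was therefore used, and depth is unknown. Gene names came from RefSeq for 18238 of 19287 IDs.

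Differences were computed here on a log2(FPKM + 1) scale of the deposited values, which understates the change of low genes. All 19 libraries entered 1 limma 3.58.1 model (R 4.3.3) of group means with an intensity trend and 15 residual degrees of freedom. Entries needed 1 FPKM in 4 libraries, p-values were adjusted by Benjamini-Hochberg over all 13594, and 0.05 was the threshold. The script was tested on simulated data. Within groups, libraries correlated at 0.9604 to 0.9929 across genes. Alternatives were another pseudocount, filter, scaling or model, and libraries left out.

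The 38 genes, the pathway and marker lists and the tests were chosen with earlier results of these data known. Values per library are given for Hspa5 and Creld2, for the gene of each of the 5 groups with the smallest adjusted p in IRLacz against IR and in IR against sham, and for the sensors and PERK effectors. From each pathway list, the genes with the smallest adjusted p in these comparisons could be named, besides Xbp1, Atf4, Atf6, Ddit3 and Asns. Where a list had 5 or fewer calls, further called genes were named after their values were seen. Of 14 marker lists, those that bear on a result are given. Promoter sequences and coordinates are RefSeq's (GRCm38.p6), and no coordinate of the authors' build was used.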

Additional observations from a re-analysis of the deposited data

Results flagged for a closer look

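Among 152 sets of values (38 genes in 4 groups), 6 held a library far from the others of its group by Dixon's criterion, which chance meets in about 1 in 20 sets. In IRLacz, replicate 3 was the high library in 3 of the 6. It had 9.54 FPKM of Hspa13, against 8.3 to 8.35 FPKM in the other IRLacz libraries, 30.75 FPKM of Manf, against 24.88 to 25.77 FPKM, and 71.03 FPKM of Ssr3, against 65.57 to 66.07 FPKM. In IRLac, replicate 1 had 100.99 FPKM of Ssr4, against 108.57 to 111.1 FPKM in the others. In IR, replicate 1 had 7.17 FPKM of Derl2, against 4.11 to 4.98 FPKM. In sham, replicate 1 had 1.07 FPKM of Trib3, against 0.57 to 0.68 FPKM. With its high library Manf was still below every IR library, and Trib3 in that sham library was still below every injured library.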

How the results depend on the processing

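In IRLacz against IR, where 14 genes were lower, 9 to 15 were called with 1 library left out. There were 9 without IR replicate 3 (2.74% of all entries lower) and 9 without IRLacz replicate 2 (3.73%). The counts without 1 library were 0 to 0 for IRLac against IR and 0 to 7 for IRLacz against IRLac. The 7 came without IRLac replicate 3, where 2.73% of all entries were lower. Against sham they were 24 to 29 for IR (28 with all), 21 to 25 for IRLacz (22 with all) and 23 to 24 for IRLac (23 with all). The shares of all entries called with all libraries were 75.6%, 70.3% and 74.8% in the same order. IRLacz against IRLac gave 3 genes with library weights, against 0.809% of all entries lower. It gave 2 without IRLacz replicate 1 and IRLac replicate 3, left out after seeing the data, against 0.487%. Scaling reversed 41 differences from sham that were called under at least 1 of the scalings compared, giving 49 values because some turned under 2 scalings, and 0 called differences among the injured groups. Under median-ratio scaling IR minus sham became -0.0849 for Hspa13, -0.11 for Calr, -0.25 for Canx, -0.27 for Syvn1, -0.19 for Edem2, -0.19 for Sec61g, -0.11 for Ssr3 and -0.15 for Ssr4. IRLacz minus sham became -0.22 for Hsp90b1, -0.0802 for Hspa13, -0.30 for Dnajb9, -0.23 for Pdia3, -0.26 for Pdia4, -0.14 for Pdia6, -0.18 for Edem2, -0.0077 for Ppp1r15a, -0.15 for Sec61b, -0.26 for Sec61g, -0.10 for Ssr1, -0.0165 for Ssr2, -0.21 for Ssr3 and -0.27 for Ssr4. IRLac minus sham became -0.0831 for Hspa13, -0.16 for Calr, -0.26 for Canx, -0.0488 for Pdia3, -0.25 for Edem2, -0.23 for Sec61g, -0.0026 for Ssr1, -0.14 for Ssr3 and -0.26 for Ssr4. Under quantile scaling IR minus sham became -0.18 for Hspa13, -0.20 for Syvn1, -0.14 for Edem2, -0.13 for Derl2, -0.20 for Derl3, -0.43 for Ern1 and -0.0781 for Ppp1r15a. IRLacz minus sham became -0.15 for Hspa13, -0.15 for Derl2, -0.54 for Derl3, -0.0555 for Ppp1r15a and -0.0106 for Ssr1, and IRLac minus sham -0.14 for Hspa13, -0.17 for Edem2, -0.11 for Derl2, 0.13 for Vcp, -0.35 for Ern1 and -0.0151 for Ppp1r15a. The cause was not tested. Deviations of same-numbered libraries from their group means correlated at -0.394 to 0.23, and the main model did not pair libraries by number. These correlations cannot show what the numbers stand for. With the replicate number as a block the counts were 14 for IRLacz against IR, 0 for IRLac against IR and 0 for IRLacz against IRLac. In IRLacz against IR, 4.94% of all entries were higher and 6.64% lower with the block. Against sham the counts were 27 for IR (56.3% of all entries higher and 18.1% lower), 22 for IRLacz (55.2% and 12.6%) and 24 for IRLac (57.3% and 16.3%). Not every library correlated best with its own number. Depth is unknown, so genes near 1 FPKM (Trib3, Chac1, Derl3) carry a counting error that cannot be stated.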
